A study of Mus musculus with 23 samples.

Results

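Astrocytes purified from the cortex of mice that lack ALDH7A1 in astrocytes (cKOAstro) reached sequencing under library names of 2 kinds. Of the 13 cKOAstro libraries compared here, out of 23 libraries in the whole series, 5 have a name that starts with Astro and 8 have a name that starts with a number. The labels give these names without saying what they stand for, so the names are used here only to divide the libraries. The question was which genes differed between the Astro-named and the numbered preparations of the same genotype, with diet held as a covariate.

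All 13 libraries carry the labelled genotype Aldh7a1 flox/flox; Slc1a3-CreER/+, in which tamoxifen-inducible Cre is made from 1 Slc1a3 allele, the gene of the glutamate transporter GLAST, so the deletion reaches cells that use that promoter. The mice are labelled male, received 4-hydroxytamoxifen at postnatal days 3 to 4, ate control diet or diet with sulforaphane (SFN) from day 21, and were taken at day 70 for purification with ACSA-2 beads, which bind a surface antigen of astrocytes. On control diet there were 2 Astro-named libraries (Astro6 and Astro7) and 5 numbered ones, and on SFN diet 3 Astro-named (Astro1, Astro4 and Astro5) and 3 numbered. The labels do not tie libraries to separate animals, although the paper states that n counts animals for RNA-seq. The p-values measure the spread between libraries, part of which may be technical.

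The 13 libraries were chosen partly from measured values. Aldh7a1, which encodes a mitochondrial and cytosolic aldehyde dehydrogenase of lysine breakdown, lay at 49 to 77.2 CPM (counts scaled to a common library total) in the 5 Astro-named libraries and at 43 to 70.6 CPM in the 8 numbered ones, against 177 to 226 CPM in 8 numbered libraries of the control genotype (ConAstro). The library labelled cKO_SFN replicate 2, with a numbered name, had 222 CPM of Aldh7a1 and was left out. Its Slc1a3, which has a lower count where CreER sits in the gene, was 4436 CPM against 1559 to 2870.0 CPM in the 13 libraries, and Esr1, whose sequence is part of the CreER transgene, was 0.533 CPM against 16 to 24.8 CPM. In the library labelled Con_SFN replicate 1, the only ConAstro library with an Astro name, Aldh7a1 was 55.7 CPM and Esr1 20 CPM. Neither of these libraries went into the comparison, and their values are given beside the results. The choice of names was also made with earlier results of these data known, so the counts and p-values below describe how far the preparations stood apart and are not independent evidence that they do.

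Total counts ran from 108448629 to 391701247 in the Astro-named libraries and from 86276988 to 378463886 in the numbered ones, so that 3 counts, taken as the floor, correspond to 0.00766 to 0.0348 CPM; this covers counting error only. The log2 total was 0.28 higher in the Astro-named libraries with diet held, which did not pass an exact two-sided permutation test within diet (p = 0.362). Astro7, labelled male, had 1541 CPM of Xist, the RNA that coats the inactive X chromosome, and 0.0077 CPM of the Y-linked Ddx3y, whereas the other 12 libraries had at most 0.586 CPM of Xist and at least 83.6 CPM of Ddx3y. Astro1 stood apart from the other 12 on the second principal component of log2 CPM (81.1 against -23.6 to 10.7). Calls of named genes that end without Astro1 or without Astro7 are stated below, by gene or by the count of their list.

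The names divided the transcriptome widely. Of 17284 genes tested, 2167 (12.5%) passed the test (edgeR quasi-likelihood, Benjamini-Hochberg adjusted p under 0.05) with diet held. Of these, 792 (4.58%) were higher in the Astro-named libraries, with a median log2 fold change of 0.43, and 1375 (7.96%) were lower, with a median of -0.88. The lower genes held most of the large differences, since 633 of them fell at least 2-fold and 95 of the higher genes rose as much. In 1115 genes (6.45%) the CPM of the 5 and the 8 libraries did not overlap, with the Astro-named libraries higher in 1.89% of genes tested and lower in 4.56%. With the library labelled cKO_SFN replicate 2 kept among the numbered ones, 1077 of 17285 genes passed, 372 higher and 705 lower. That library and the library labelled Con_SFN replicate 1 each lay with the other name series in C1qa, Itpk1, Plin4 and Zbtb16 as well as in the genotype genes, so values with it kept place a library that resembles the Astro-named ones in these genes among the numbered ones. Whether the 2 libraries were exchanged was not tested. Without Astro7 1459 of 17298 passed (406 higher, 1053 lower), and without both Astro1 and Astro7 2083 of 17623 (897 higher, 1186 lower). Without Astro1 2811 of 17504 passed (1228 higher, 1583 lower). Without Astro4 1629 of 17486 passed (533 higher, 1096 lower), and without Astro6 1859 of 17288 (690 higher, 1169 lower). Counts of list members under these fits, given below, are to be read beside these totals.

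**Figure D1:**
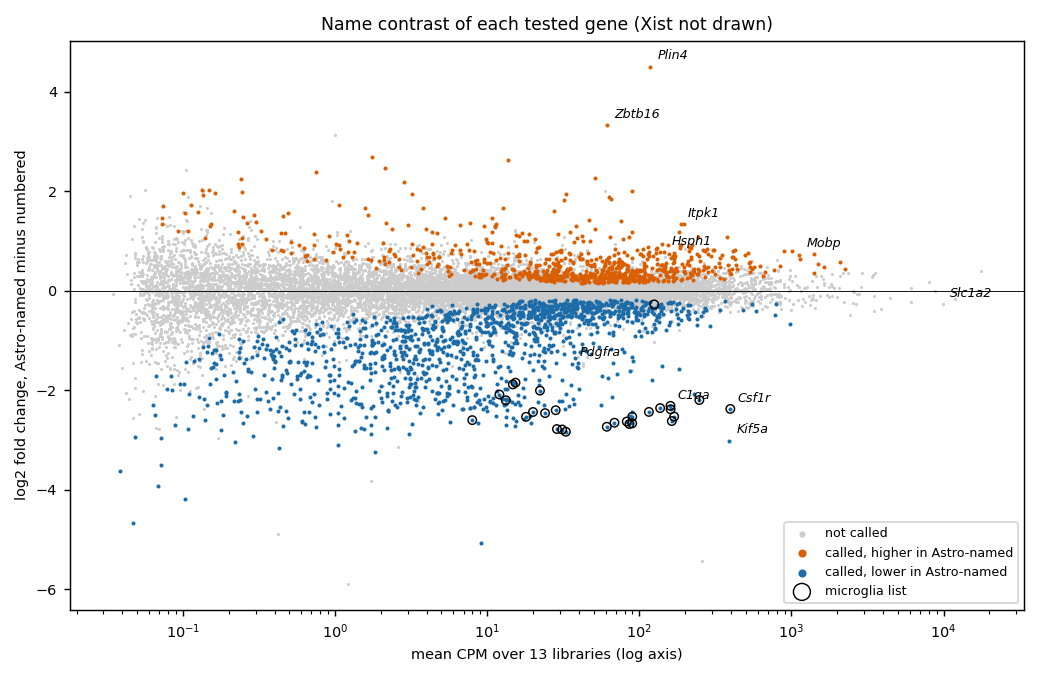
Log2 fold change of each tested gene (Astro-named minus numbered, diet held) against its mean CPM over the 13 libraries on a log axis, with genes that passed the test in colour and the microglia list ringed; Xist is not drawn. The microglial genes form a band between -1.85 and -2.84, apart from Sall1 at -0.28.

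Microglia are the resident macrophages of the brain. They make the complement component C1q, depend on the growth factor receptor CSF1R, and sense damage and lipids through the receptor TREM2 and its signalling partner TYROBP. Purified astrocytes hold microglial transcripts to the extent that microglia or their RNA are carried along. In bulk libraries, fewer cells of a type and less RNA per cell cannot be told apart.

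Microglial genes were lower in the Astro-named libraries nearly without exception. C1qa and C1qb encode chains of C1q, and Aif1 encodes the calcium-binding protein IBA1. These genes came with the comparison as its markers and are described without a test. C1qa was 62.5, 42, 38.5, 49.2 and 46.5 CPM in Astro1, Astro4, Astro5, Astro6 and Astro7, and in the numbered libraries its lowest, median and highest values were 114, 195 and 446 CPM. Every Astro-named library lay below every numbered library for C1qa. C1qb was 36.6 to 57.3 CPM in the Astro-named and 115 to 425 CPM in the numbered libraries, and Aif1 was 1.22 to 3.47 CPM against 5.01 to 22.9 CPM, again without overlap. The library labelled cKO_SFN replicate 2 had 45 CPM of C1qa, within the range of the Astro-named libraries, and the library labelled Con_SFN replicate 1 had 297 CPM, within the range of the numbered ones.

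Across the 25 genes of a microglial list that remain without the 3 markers, 24 fell and none rose, against 7.96% of all genes tested that fell. The median log2 fold change of the 25 was -2.46, and that of all genes tested was 0.0056. The remaining member, Sall1, a transcription factor of microglia, had a log2 fold change of -0.28. The summed level of the whole list of 28, markers included, was 1008, 569, 595, 772 and 751 CPM in Astro1, Astro4, Astro5, Astro6 and Astro7, and its lowest, median and highest values in the numbered libraries were 1712, 3338 and 5487 CPM. The numbered ConAstro libraries, at 1564 to 4047 CPM, lay with the numbered cKOAstro libraries. None of the 28 genes was at 0 in any of the 13 libraries. Without Astro1 and Astro7 all 25 fell, and with cKO_SFN replicate 2 kept 24 fell.

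**Figure D2:**
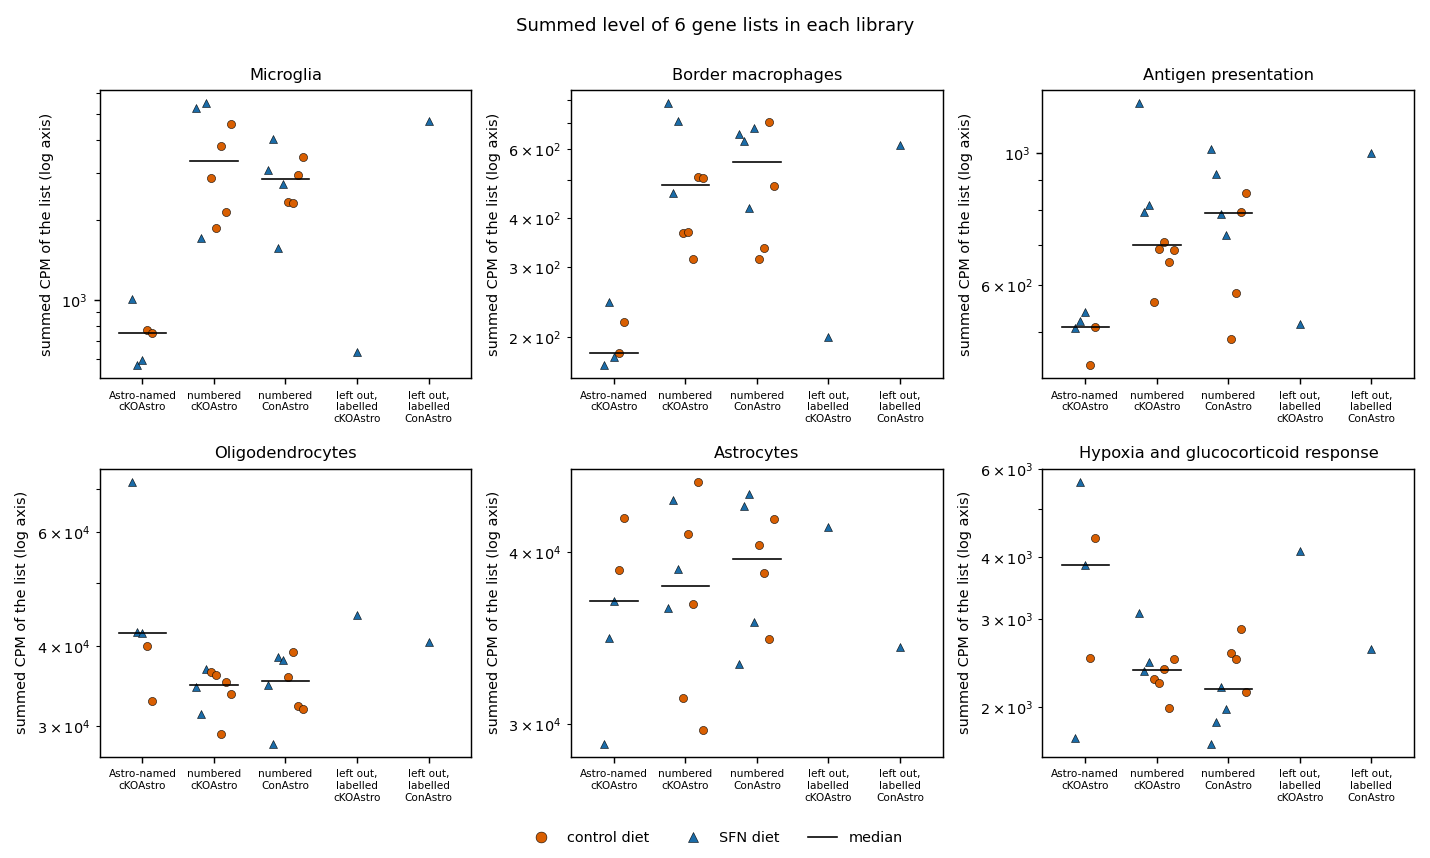
Summed CPM of 6 gene lists in each library on log axes, with circles for control diet, triangles for SFN diet and a bar at the median of each set; the libraries left out are drawn at the right of each panel. For microglia, border macrophages and antigen presentation the Astro-named libraries lie below all numbered cKOAstro libraries, whereas the sums of the astrocyte list overlap.

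Csf1r, the receptor on which microglia depend, was 152, 89.2, 89.2, 114 and 119 CPM in Astro1, Astro4, Astro5, Astro6 and Astro7, and 286, 571 and 948 CPM at the lowest, median and highest of the numbered libraries. It fell by 2.38 on the log2 scale (SE 0.32, adjusted p = 0.000456), with no overlap. Siglech, a sialic acid receptor of microglia, had the largest fold within the microglial list and fell by 2.84 (SE 0.41, adjusted p = 0.00065), from 20.1 to 78.8 CPM in the numbered to 4.02 to 10.3 CPM in the Astro-named libraries. Trem2 fell by 2.79 and its partner Tyrobp by 2.46. Ctss, a lysosomal protease, fell by 2.53, and Cd68, a lysosomal membrane protein of phagocytes, by 2.01. Fcer1g, an adaptor of immune receptors, fell by 2.20 and Ly86, which partners a Toll-like receptor homologue, by 2.54. The folds of these members, which include surface receptors, adaptors and lysosomal proteins, ran from -2.01 to -2.84.

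Outside the list, the smallest p-values among lower genes with a mean of at least 1 CPM belonged to Aoah, an enzyme that inactivates bacterial lipopolysaccharide, which fell by 1.86 (SE 0.15, adjusted p = 0.000191), and to Col15a1, a basement membrane collagen, Cd4, Maf, a transcription factor of macrophages, Hpgd, which degrades prostaglandins, Ms4a7, Il10rb and Rac2. Rac2, a GTPase of blood-derived cells, fell by 2.24 and Maf by 1.89, each without overlap between the 5 and the 8 libraries. Among the largest folds without overlap were Gpr34, Olfml3 and Cd33, at -2.78, -2.74 and -2.72, all known from microglia. Nlrp1b, an inflammasome sensor, fell by 2.76, but its locus holds near-identical copies, so its count is uncertain. Upk1b, a uroplakin, and Cryba4, a crystallin, had log2 fold changes of -3.24 and -2.83. A list of 12 neutrophil, monocyte and lymphocyte markers did not move with these genes. Of its 6 members with enough counts to test, 1 fell and none rose, against 7.96% and 4.58% of all genes tested. The log2 fold change was above 0 in 3 of the 6, with a median of 0.21, and none fell without Astro1 or without Astro7.

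Border macrophages sit along vessels and in the meninges and are marked by scavenger receptors such as MRC1 and STAB1. Of 10 listed genes, 8 fell and none rose, against 7.96% of all genes tested that fell. Their median log2 fold change was -1.47. Stab1 was 77.2, 95.4, 75.9, 82.4 and 91.8 CPM in Astro1, Astro4, Astro5, Astro6 and Astro7 and 168, 216 and 376 CPM at the lowest, median and highest of the numbered libraries. It fell by 1.57 (SE 0.18, adjusted p = 0.000356), without overlap. Mrc1 fell by 1.33, Pf4, a chemokine, by 1.92, and Cd209f, a lectin, by 2.19. The summed level of the list was 169 to 246 CPM in the Astro-named and 315 to 783 CPM in the numbered libraries.

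Short stretches of promoter are shown for genes of these lists and of the interferon and antigen presentation lists below, because their members moved together. PU.1, the factor that specifies macrophages and microglia, is known to bind sites with a GGAAGT core, and interferon-regulated factors bind repeats of GAAA spaced by 2 bases of any kind. The 250 bases before the start site were searched on both strands in RefSeq promoters of GRCm38.p6, the build of the mm10 alignments. GGAAGT occurred in 7 of 20 microglial promoters with a sequence (35%), in 3 of 8 border macrophage promoters (37.5%) in 6 of 14 heat shock promoters (42.9%) and in 22% of the 12795 promoters of genes tested. The longer form GAGGAAGT, which contains it, occurred in 1 of the 20, 1 of the 8 and 2.29% of genes tested. A match describes the letters only. The windows of 100 bases below run 5′ to 3′ along the gene's strand, with the match in capitals, as its reverse complement in both:
C1qb: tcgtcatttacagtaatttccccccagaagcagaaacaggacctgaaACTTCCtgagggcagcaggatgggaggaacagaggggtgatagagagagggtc
Pf4: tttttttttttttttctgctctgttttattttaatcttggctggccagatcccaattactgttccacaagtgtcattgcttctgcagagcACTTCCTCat
The C1qb window is chr4:136886201-136886300 on the minus strand, with GGAAGT beginning 53 bases before the start site, and the Pf4 window is chr5:90772335-90772434 on the plus strand, with GAGGAAGT beginning 10 bases before it.

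Antigen presentation on MHC class I passes peptides cut by the immunoproteasome through the TAP transporter onto class I molecules with B2M, and class II is the form used by professional presenting cells. Of 19 listed genes tested, 16 fell and none rose, against 7.96% of all genes tested that fell. Their median log2 fold change was -0.75. Psmb8, an immunoproteasome subunit, was 4.13, 3.7, 3.05, 3.38 and 3.14 CPM in Astro1, Astro4, Astro5, Astro6 and Astro7 and 6.4, 8.2 and 16.9 CPM at the lowest, median and highest of the numbered libraries. It fell by 1.50 (SE 0.20, adjusted p = 0.00045), without overlap. Psmb9 fell by 1.62 and Tap1 by 0.69. These genes lie head to head on chromosome 17, and their promoter windows of 300 bases share 275 bases (chr17:34187306-34187580). The class I genes H2-T23 and H2-K1 fell by 1.25 and 0.47, and B2m by 0.75 (adjusted p = 0.0346). The class I genes are near copies of each other, so how reads were divided among them is uncertain. Microglia express these genes too, and their summed level fell beside this list (569 to 1008 CPM against 1712 to 5487 CPM); their part in the result was not tested.

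Interferon-stimulated genes fell in the same direction with smaller folds. Of 30 members, 16 fell and none rose, against 7.96% of all genes tested that fell, with a median of -0.54. Trim30a was 2.3 to 3.31 CPM in the Astro-named and 4.9 to 10.3 CPM in the numbered libraries and fell by 1.46 (SE 0.18, adjusted p = 0.000356). The GTPase genes Gbp3 and Gbp7 fell by 0.93 and 0.83 and Parp14 by 1.08, each without overlap. Trim30a, Gbp3 and Gbp7 belong to families with close copies. With cKO_SFN replicate 2 kept, 9 of the 30 passed, against 1077 of all 17285 genes tested in that fit. The repeat, GAAA then 2 bases then GAAA on either strand, occurred in 14 of 21 interferon promoters with a sequence (66.7%), in 2 of 14 antigen presentation promoters (14.3%) and in 2.63% of the promoters of genes tested, which is what such a list is known for and was not a result of the comparison:
Trim30a: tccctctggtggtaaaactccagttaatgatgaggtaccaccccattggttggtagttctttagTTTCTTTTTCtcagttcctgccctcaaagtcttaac
Gbp3: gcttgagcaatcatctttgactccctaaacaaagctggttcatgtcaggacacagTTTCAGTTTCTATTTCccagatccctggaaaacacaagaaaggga
B2m: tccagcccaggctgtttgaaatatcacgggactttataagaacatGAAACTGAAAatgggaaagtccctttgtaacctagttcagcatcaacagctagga
The windows are chr7:104465194-104465293 on the minus strand for Trim30a, chr3:142559944-142560043 on the plus strand for Gbp3, where 2 matches overlap, and chr2:122147503-122147602 on the plus strand for B2m. The match is in capitals, on the opposite strand in Trim30a and Gbp3.

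**Figure D3:**
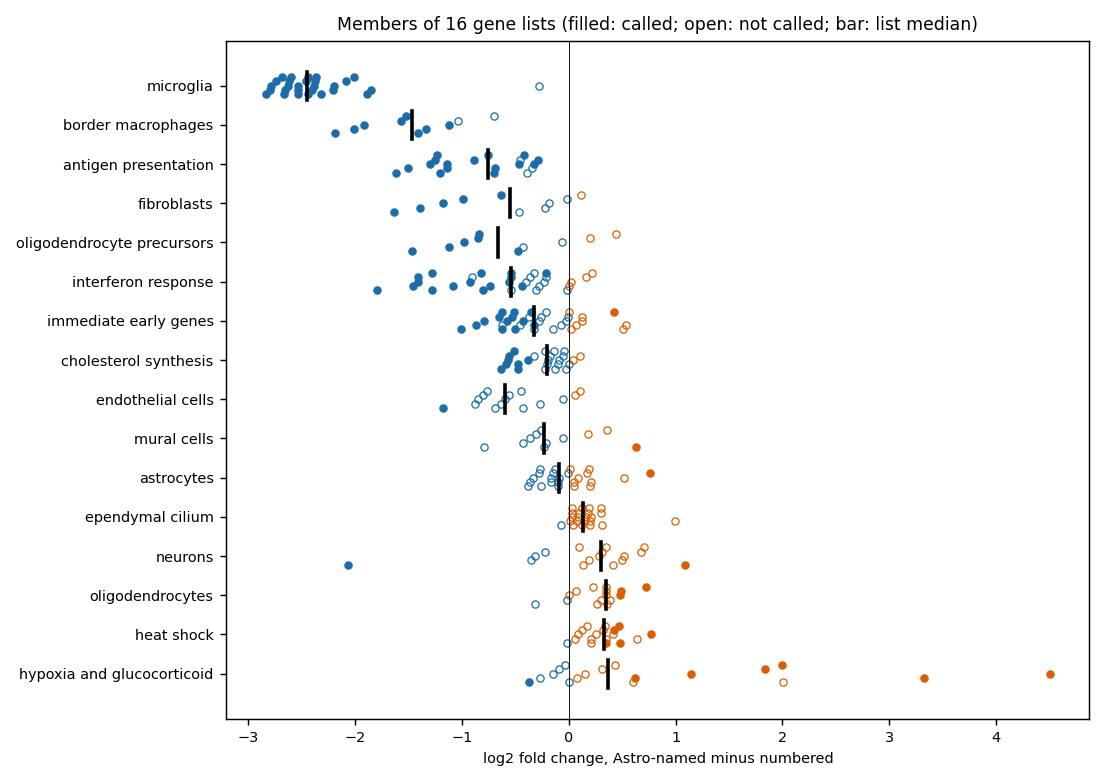
Log2 fold change (Astro-named minus numbered, diet held) of the members of 16 gene lists, filled where the gene passed the test and open where it did not, with a bar at the list median. The medians run from -2.45 for microglia to 0.37 for the hypoxia and glucocorticoid list. The microglia list is drawn with C1qa, C1qb and Aif1, the markers that came with the comparison, and its median without them is -2.46.

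Other cell types of the cortex differed less. Oligodendrocyte precursors carry the growth factor receptor PDGFRA and the proteoglycan versican. Of 10 listed genes, 6 fell and none rose, against 7.96% of all genes tested that fell, with a median of -0.66. Pdgfra was 19.8, 26, 17.9, 16.6 and 10.5 CPM in Astro1, Astro4, Astro5, Astro6 and Astro7 and 33.5, 48.3 and 64.8 CPM at the lowest, median and highest of the numbered libraries, and it fell by 1.47 (SE 0.23, adjusted p = 0.000892), without overlap. C1ql1 fell by 1.12, Vcan by 0.85 and Gpr17, which marks precursors committed to differentiate, by 0.84. With cKO_SFN replicate 2 kept, where Pdgfra was 6.84 CPM, none of the 10 passed edgeR's test; 1 numbered ConAstro library also had a Pdgfra level of 11 CPM. Without Astro6 or without Astro7 4 of the 10 fell. The summed level of the list overlapped (1257 to 2399 CPM against 1255 to 1839 CPM).

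Mature oligodendrocytes make myelin. Of 15 listed genes, 3 rose and none fell, against 4.58% of all genes that rose. Mobp, a myelin protein gene, was 1290 to 1665 CPM in the Astro-named and 775 to 1117 CPM in the numbered libraries and rose by 0.72 (SE 0.11, adjusted p = 0.000787), without overlap. Mbp, a major myelin gene, had a log2 fold change of 0.36 that did not pass (adjusted p = 0.0608). The list summed to 71821 CPM in Astro1 and to 32793 to 42033 CPM in the other 4 Astro-named libraries. Without Astro1 2 listed genes rose and 2 fell, and leaving out each other library let 1 to 3 rise and none fall.

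Few neuronal genes passed, and not in the same direction. Of 16 listed genes, 1 rose and 1 fell, against 4.58% and 7.96% of all genes tested. The log2 fold change was above 0 in 12 of the 16, with a median of 0.30. Tubb3, a neuronal tubulin, rose by 1.08 (SE 0.15, adjusted p = 0.000456), from 50.4 to 67.1 CPM in the numbered to 88.4 to 190 CPM in the Astro-named libraries. Camk2a, a kinase of excitatory neurons, fell by 2.07 (SE 0.58, adjusted p = 0.0316), with overlap (27.4 to 114 CPM against 67.1 to 709.9 CPM), and no longer passed without Astro4, Astro5 or Astro7. Kif5a, a kinesin of axonal transport that was not on the list, followed Camk2a, at 61.6 to 96.2 CPM in the Astro-named and 130, 416 and 1272 CPM at the lowest, median and highest of the numbered libraries, and fell by 3.01 (SE 0.54, adjusted p = 0.00234). Both varied widely among the numbered libraries. Without Astro1 5 of the 16 neuronal genes rose and 1 fell, against 1228 and 1583 of all 17504 genes tested in that fit. Without both Astro1 and Astro7 9 rose and none fell, against 897 and 1186 of all 17623. The summed neuronal level was lowest in Astro1, at 549 CPM, and 989 to 1693 CPM in the other 4 Astro-named libraries, which lay inside the numbered range of 842 to 1762 CPM.

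Fibroblasts of the meninges and vessels make collagens and small proteoglycans. Of 10 listed genes, 5 fell and none rose, against 7.96% of all genes tested that fell, with a median of -0.55. The same number of listed genes fell under each left-out library. Dcn, which encodes decorin, fell by 1.40 (SE 0.17, adjusted p = 0.000356), from 8.13 to 15.5 CPM to 2.87 to 5.7 CPM. Lum fell by 1.63, Igf2, a growth factor of the meninges and vessels, by 1.17, and Col3a1 by 0.99. Col1a1 and Col1a2 did not pass, with log2 fold changes of -0.22 and 0.12. Of 15 endothelial genes 1 fell, Itm2a, by 1.18, against 7.96% of all genes tested that fell. The endothelial median was -0.60, with 0.013 on control diet and -1.20 on SFN diet. Of 11 mural genes 1 rose, Myh11, a smooth muscle myosin, by 0.63, against 4.58% of all genes tested that rose. Myh11 no longer passed without Astro7 (log2 fold change 0.51, adjusted p = 0.0685) or with cKO_SFN replicate 2 kept (adjusted p = 0.111). Choroid plexus genes spanned 14.7 to 1893 CPM in sum among the numbered libraries and 26.5 to 61.2 CPM among the Astro-named ones. Of 9 members 1 fell, Kl, which encodes klotho, and none rose, against 7.96% and 4.58% of all genes tested. Kl had a log2 fold change of -5.07 (SE 1.22, adjusted p = 0.0148). The larger but more variable difference of Ttr did not pass (-5.44, SE 1.78, adjusted p = 0.0634). Without both Astro1 and Astro7 Kl no longer passed (adjusted p = 0.0741). None of 22 tested ependymal cilium genes passed edgeR's adjusted test in either direction, against 12.5% of all genes tested.

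Astrocytes take up glutamate, buffer potassium through channels and gap junctions, and shape synapses with secreted proteins. Of 24 astrocyte genes, 1 rose and none fell, against 4.58% and 7.96% of all genes tested, with a median of -0.09. The summed level overlapped, at 29041 to 42333 CPM in the Astro-named and 29687 to 44949 CPM in the numbered libraries. The glutamate transporter gene Slc1a2 had a log2 fold change of -0.26, glutamine synthetase (Glul) one of 0.17 and Aldoc one of -0.10, and none of the 3 passed. The gene that rose was Gjb6, the gap junction protein connexin 30, at 327, 808, 756, 669 and 890 CPM in Astro1, Astro4, Astro5, Astro6 and Astro7 against 320, 416 and 493 CPM at the lowest, median and highest of the numbered libraries. It rose by 0.76 (SE 0.20, adjusted p = 0.0213). Astro1 lay among the numbered libraries and the other 4 above them all. Without Astro7 Gjb6 no longer passed (log2 fold change 0.61, adjusted p = 0.0965), and without Astro4 or Astro5 none of the 24 passed edgeR's test either. Of 24 genes that mark reactive astrocytes, 5 fell and 1 rose, against 7.96% and 4.58% of all genes tested. Without Astro7 4 of the 24 fell and none rose. Psmb8 and H2-D1 are among the 5 and also stand on the antigen presentation list.

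Among genes by which astrocytes act on synapses, 2 of 20 fell and 1 rose, shares close to those of all genes tested (7.96% and 4.58%). Tnc, the matrix protein tenascin C, was 8.34 to 17.4 CPM in the Astro-named and 20.8 to 30.9 CPM in the numbered libraries and fell by 0.95 (SE 0.17, adjusted p = 0.00225), and the proteoglycan gene Ncan fell by 0.48. Thbs4, a thrombospondin, rose by 0.95 (SE 0.22, adjusted p = 0.0119), with overlap. Without Astro7, Ncan (adjusted p = 0.0508) and Thbs4 (adjusted p = 0.06) no longer passed, which leaves Tnc, and without Astro1 2 rose and 2 fell. Of 9 genes of lysine breakdown, the pathway of ALDH7A1, 1 rose and none fell, against 4.58% and 7.96% of all genes tested. The gene was Gcdh, which acts on glutaryl-CoA, and it rose by 0.26 (adjusted p = 0.0115). Gcdh did not pass without Astro7 (0.21, adjusted p = 0.0635) or with cKO_SFN replicate 2 kept (adjusted p = 0.0575). Got1, a glutamate transaminase, rose by 0.37, and Hk2, a hexokinase that microglia use as well, fell by 1.14 without overlap. The integrin gene Itga6 fell by 0.81 and Lama1, a laminin chain, by 1.04.

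Stress and activity genes differed in opposite directions. Immediate early genes are induced within minutes of stimulation and also during tissue dissociation. Of 32 members, 13 fell and 1 rose, against 7.96% and 4.58% of all genes tested, with a median of -0.32. The summed microglial level was lower in the same libraries (569 to 1008 CPM against 1712 to 5487 CPM), and its part in this result was not tested. Fosl2 was 12.7, 15.3, 11.5, 10.8 and 12.2 CPM in Astro1, Astro4, Astro5, Astro6 and Astro7 and 16, 19.3 and 21.5 CPM at the lowest, median and highest of the numbered libraries, and it fell by 0.65 (SE 0.09, adjusted p = 0.000685), without overlap. Zfp36, which destabilises cytokine mRNAs, fell by 0.79, Btg2 by 0.53, Klf6 by 0.32 and Jun by 0.35, of which Jun no longer passed without Astro7 (adjusted p = 0.124). Fos had a log2 fold change of -0.37 that did not pass (adjusted p = 0.12). With cKO_SFN replicate 2 kept, 2 of the 32 fell.

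Heat shock genes encode chaperones that refold proteins. Of 18 members, 5 rose and none fell, against 4.58% of all genes tested that rose, with a median of 0.33. Hsph1 was 101, 329, 160, 148 and 235 CPM in Astro1, Astro4, Astro5, Astro6 and Astro7 and 94, 110 and 142 CPM at the lowest, median and highest of the numbered libraries, and it rose by 0.77 (SE 0.22, adjusted p = 0.0386). Astro1 lay within the numbered range. Hsp90aa1, Hspa8 and Hsp90ab1 rose by 0.47, 0.42 and 0.35, and Cryab, a small heat shock protein, by 0.48, in that gene without overlap. Without Astro7 1 of the 18 rose, without Astro4 2 and without Astro1 7, and with cKO_SFN replicate 2 kept 2 rose.

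Cholesterol synthesis genes are controlled together by SREBP2. Of 24 members, 8 fell and none rose, against 7.96% of all genes tested that fell, with a median of -0.20, and 8 to 9 fell when each library was left out. Hsd17b7, a reductase of the later steps, was 42.0, 33.4, 36.6, 36.4 and 34.6 CPM in Astro1, Astro4, Astro5, Astro6 and Astro7 and 48.9, 53.5 and 63.2 CPM at the lowest, median and highest of the numbered libraries. It fell by 0.58 (SE 0.08, adjusted p = 0.000514), without overlap. Cyp51, a demethylase of the pathway, fell by 0.48. Srebf2 itself had a log2 fold change of -0.21 (adjusted p = 0.105).

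Genes known to respond to glucocorticoids or low oxygen held the largest rises among the listed genes that passed. Glucocorticoids act through a nuclear receptor that raises Zbtb16 and Fkbp5 in many tissues, and Plin4 coats lipid droplets. Of 18 members, 6 rose and 1 fell, against 4.58% and 7.96% of all genes tested, with a median of 0.37. Plin4 was 12.3, 473, 335, 207 and 408 CPM in Astro1, Astro4, Astro5, Astro6 and Astro7 and 6.14, 11.2 and 23.8 CPM at the lowest, median and highest of the numbered libraries. It rose by 4.51 (SE 0.60, adjusted p = 0.000456). Zbtb16, which encodes a transcriptional repressor, was 10.7, 231, 123, 115 and 211 CPM in the same order against 10.8, 11.7 and 22.8 CPM, and rose by 3.32 (SE 0.47, adjusted p = 0.000618). For both genes Astro1 lay with the numbered libraries and the other 4 Astro-named libraries above all of them.

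Hif3a, a regulator of the response to hypoxia, rose by 1.83 (SE 0.43, adjusted p = 0.0121), with Astro1 again below the other 4 (16.5 CPM against 95.5 to 201 CPM). Hif3a no longer passed without Astro7 (log2 fold change 1.41, adjusted p = 0.0617) or with cKO_SFN replicate 2 kept (adjusted p = 0.0572). Pdk1, a target of HIF1, fell by 0.37 (adjusted p = 0.0109). Sgk1, Tsc22d3 and Mt1, abundant members of the same list, overlapped between the names. Sgk1 was 57.9 to 1230 CPM in the Astro-named libraries, lowest in Astro6, and 300 to 702 CPM in the numbered ones. Tsc22d3 was 275 to 1095.5 CPM against 311 to 726 CPM, and Mt1 375 to 683 CPM against 343 to 587 CPM. Fkbp5, named after its values were seen, was 4.48, 251, 87.8, 49.2 and 159 CPM in Astro1, Astro4, Astro5, Astro6 and Astro7 and 6.22, 17.6 and 81.5 CPM at the lowest, median and highest of the numbered libraries, and its log2 fold change of 2.01 did not pass (SE 0.70, adjusted p = 0.0817). Without Astro1, 10 of the 18 rose, against 1228 of all 17504 genes tested in that fit, and Fkbp5 rose by 2.32 (adjusted p = 0.00859). Without Astro7 3 rose, without Astro4 3, and with cKO_SFN replicate 2 kept 2 rose, when Plin4 had a log2 fold change of 3.33 (adjusted p = 0.0606). A single numbered ConAstro library, Con_no_SFN replicate 3, had raised values too, with 53.2 CPM of Plin4 and 81.8 CPM of Zbtb16, against at most 13.8 and 16.9 CPM in the other 7.

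**Figure D4:**
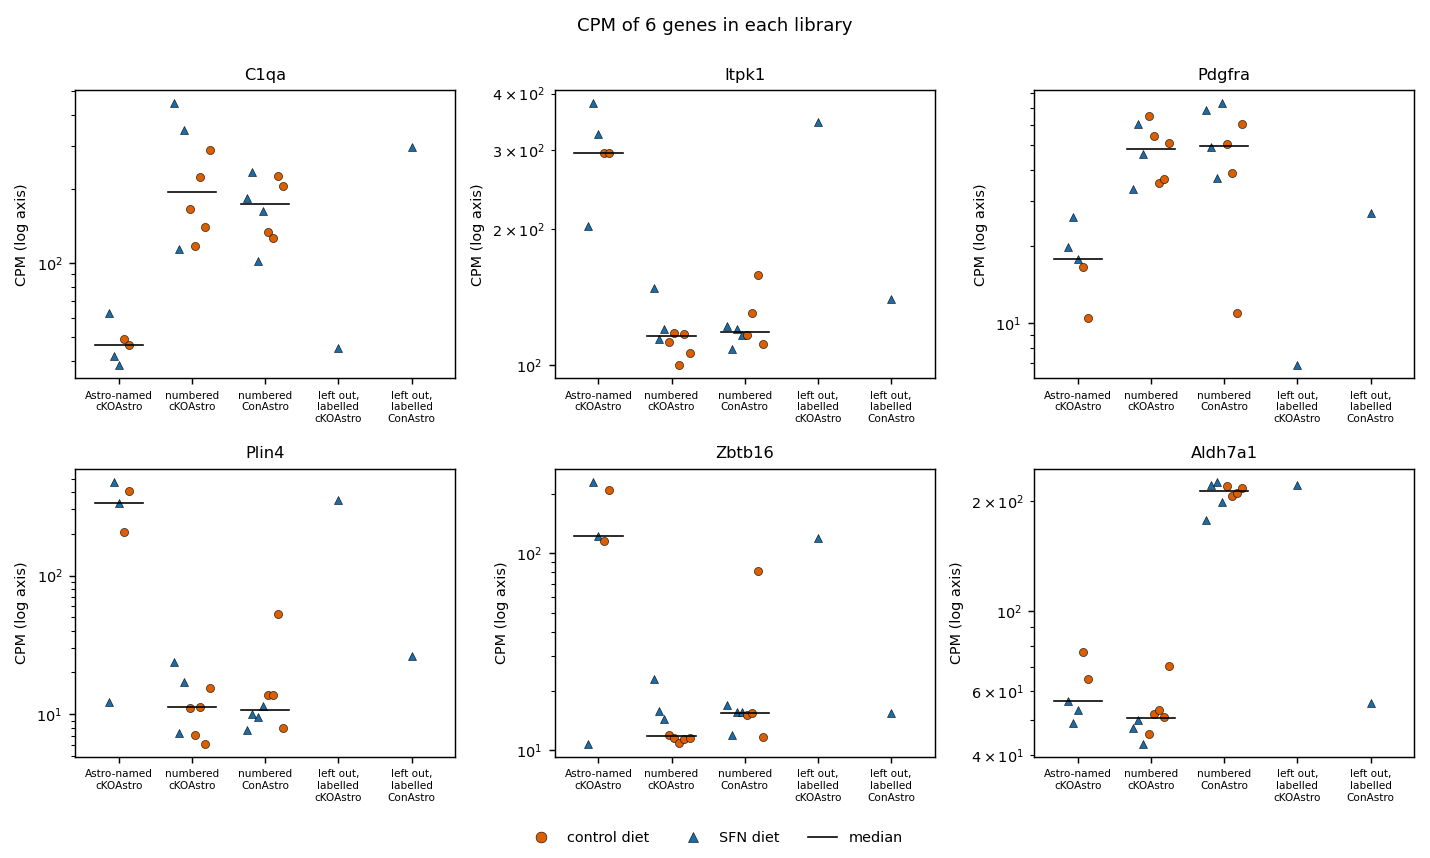
CPM of 6 genes in each library on log axes, with circles for control diet, triangles for SFN diet, a bar at the median of each set and the libraries left out at the right. Astro1 has 12.3 CPM of Plin4 and 10.7 CPM of Zbtb16, with the numbered libraries, whereas for Itpk1 and C1qa all 5 Astro-named libraries lie apart from the 8 numbered ones.

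The genes that separated the preparations most cleanly upwards belonged to no single list. Itpk1, an inositol phosphate kinase, was 204, 380, 326, 296 and 295 CPM in Astro1, Astro4, Astro5, Astro6 and Astro7 and 100, 116 and 149 CPM at the lowest, median and highest of the numbered libraries. It rose by 1.33 (SE 0.12, adjusted p = 0.000356), and the gene lies at chr12:102568582-102704930 in the GENCODE annotation of mm10. Pcolce2, an enhancer of procollagen processing, rose by 1.30 (SE 0.14, adjusted p = 0.000356), from 20.2 to 28.3 CPM to 45.5 to 89.3 CPM. Bcat1, the cytosolic branched-chain amino acid transaminase, had the largest fold among higher genes without overlap, 1.82 (SE 0.23, adjusted p = 0.000356), with 30.1 to 98.1 CPM in the Astro-named and 10.8 to 20.8 CPM in the numbered libraries. For all 3 genes the 5 Astro-named libraries lay above every numbered library, and the library labelled cKO_SFN replicate 2 lay with the Astro-named ones (346, 62.3 and 72.5 CPM).

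Others of the largest rises without overlap were Sulf2, which edits heparan sulphate (1.18), Emilin2, a matrix glycoprotein (1.25), Inpp5j, an inositol phosphatase (1.41), Pdzd7 (1.33), Rab37, a GTPase of secretion (1.18), Gabrr2, a GABA receptor subunit (1.24), Otud7a, a deubiquitinase (1.18), and Pxylp1, which trims the glycosaminoglycan linker (1.30), all as log2 fold changes. Among the smallest p-values, Plcl1 rose by 0.91, Cpm, a carboxypeptidase, by 0.85, Enox1 by 0.85, Kctd3 by 0.76, Nde1 by 0.73 and Mta3, a chromatin remodelling subunit, by 0.59. Further listed rises, each with overlap, were Fth1, ferritin heavy chain, by 0.44, Npas2, a clock factor, by 0.79, and the nuclear RNAs Miat by 0.77 and Snhg11 by 1.18. Astro1 had 30 CPM of Snhg11, the numbered libraries 36.9 to 92.7 CPM, and Astro4, Astro5, Astro6 and Astro7 140 to 188 CPM. Without Astro7, Npas2, Miat and Snhg11 no longer passed (adjusted p = 0.0796, 0.0517 and 0.0539). Hmox1, haem oxygenase, fell by 0.41 (adjusted p = 0.0437). Among 26 tested targets of NRF2, the factor that SFN activates, Fth1 and Hmox1 were the only members that passed, against 12.5% of all genes tested. Hmox1 did not pass without Astro1 or without Astro7 (adjusted p = 0.0521 and 0.0519).

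Housekeeping lists and a stress list, that of the unfolded protein response, showed no gene past the test with diet held. Of all genes tested, 12.5% passed. None of 73 oxidative phosphorylation genes, 78 cytosolic ribosomal protein genes, 16 histone genes, 16 proliferation genes or 20 unfolded protein response genes passed edgeR's adjusted threshold. Their median log2 fold changes were -0.06, -0.19, 0.04, 0.05 and 0.21. For 76 of the 78 ribosomal protein genes the log2 fold change was below 0. For 17 of the 20 unfolded protein response genes it was above 0. On control diet alone 3 of these 20 rose and none fell, against 2.33% and 2.98% of all genes tested, with a median of 0.33. On SFN diet none passed, against 1.81% of all genes tested, with a median of 0.14. Genes that passed were of similar length to all genes tested, with median exon lengths of 4477 bases for higher, 4307 for lower and 4121 for all.

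The name contrast was then taken within each diet, where no library is shared. On control diet, with 2 Astro-named and 5 numbered libraries, 954 of 17977 genes passed (5.31%), 419 higher and 535 lower. On SFN diet, with 3 and 3, 300 of 16605 passed (1.81%), 37 higher and 263 lower. Of 946 genes that passed on control diet and were tested on SFN diet, 94.6% had the same direction there, of 300 that passed on SFN diet 98.7% had it on control diet, and of all 16605 genes 67.2% agreed in sign. On both diets 186 genes passed, 171 lower and 15 higher, and each had the same direction. That is 19.7% of the genes called on control diet and 62% of those called on SFN diet. Leaving out a library from a diet of so few changed the counts widely, to 76 without Astro7, 438 without Astro6 and 460 without cKO_no_SFN replicate 5 on control diet. On SFN diet none passed edgeR's test without Astro4, without Astro5, without cKO_SFN replicate 1 or without replicate 7, with 2076 to 2931 at an unadjusted p under 0.05, and 610 passed without Astro1.

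**Figure D5:**
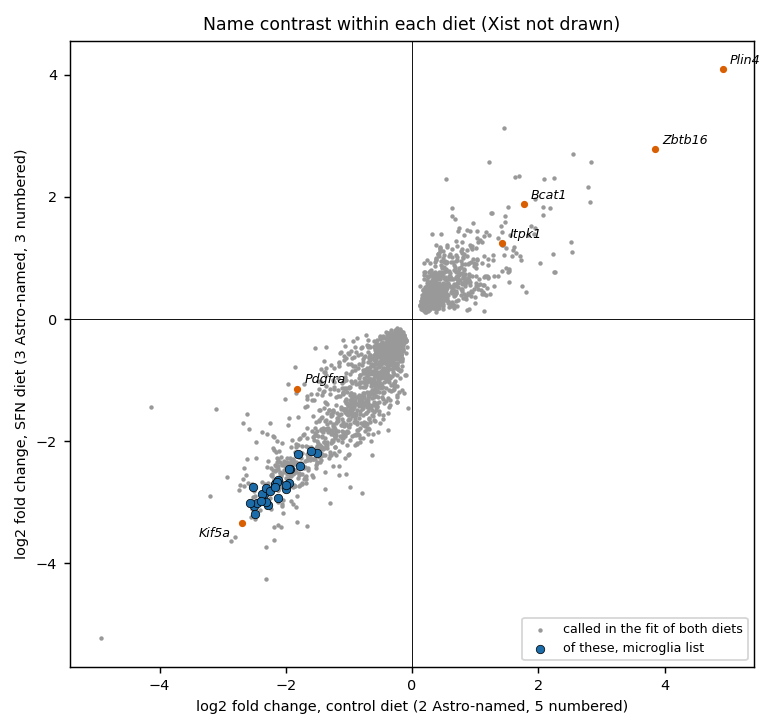
Log2 fold change of the name contrast on SFN diet (3 Astro-named, 3 numbered libraries) against that on control diet (2 and 5), for the genes that passed in the fit of both diets, with microglial genes in blue. Plin4 lies at 4.92 and 4.09, and the microglial genes lie below 0 on both axes.

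Microglial genes followed this pattern. Of the 25 without the markers, 24 fell on control diet, against 2.98% of all genes tested, with a median of -2.17, and 12 fell on SFN diet, against 1.58%, with a median of -2.75. Csf1r fell by 2.12 on control diet (SE 0.38) and by 2.63 on SFN diet (SE 0.45). Itpk1 rose by 1.43 on control diet (adjusted p = 0.000303) and had a log2 fold change of 1.24 on SFN diet that missed the threshold (adjusted p = 0.0541). Plin4 rose by 4.92 on control diet (SE 0.36, adjusted p = 0.000863) and had a log2 fold change of 4.09 on SFN diet (SE 1.16, adjusted p = 0.137), where Astro1 is 1 of the 3.

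The difference between the diets was tested by the product of diet and name over all 13 libraries. It passed edgeR's test in 2 of 17676 genes (0.0113%), Ly6a and Grrp1, which are named because they passed. Ly6a, a surface antigen of endothelial and blood stem cells, had mean CPM of 24.6 in Astro-named and 13.7 in numbered libraries on control diet, and of 14.9 and 30.5 on SFN diet. The difference of its log2 fold changes, SFN minus control diet, was -1.85 (SE 0.24, adjusted p = 0.0412). For Grrp1 the means were 2.98 and 2.23 CPM on control diet and 1.80 and 5.37 CPM on SFN diet, and the difference was -1.96 (SE 0.26, adjusted p = 0.0412). Neither was called when the counts were thinned to equal depth, nor when any library other than cKO_SFN replicate 7 was left out, and limma-voom called 1 of them. The endothelial list had a median log2 fold change of 0.013 on control diet and -1.20 on SFN diet. Its summed level was 780 to 966 CPM in numbered control-diet libraries. In cKO_SFN replicates 1, 3 and 7 it was 1295, 1785 and 969 CPM. Whether Ly6a and Grrp1 moved with endothelial content was not tested.

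The numbered libraries carry numbers of their own. Among cKOAstro libraries, the leading numbers 141 and 146 occur only on control diet and 143 and 147 only on SFN diet. Against the libraries numbered 141 and 143 alone, 1256 genes passed, and against those numbered 146 and 147 alone, 1034. The median of the 25 microglial genes was -1.54 in the latter, where 23 of them fell. When the 8 numbered ConAstro libraries were added to the fit with a term for each group (21 libraries), 2992 genes passed, 2103 of them among the 2167.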

How the data were processed

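The authors checked reads with FastQC, aligned them to mm10 with STAR and deposited raw gene counts from STAR's gene table (24411 genes, no column left unused); versions, annotation and strandedness are not given in the sources used here, so overlapping and antisense genes cannot be told apart. RNA was poly(A)-selected from ACSA-2-purified cortical astrocytes. Counts were tested with edgeR 4.0.16 (filterByExpr, minimum count 10 and minimum total 15; TMM; quasi-likelihood; Benjamini-Hochberg over all genes tested) on diet and name, after tests on simulated data. CPM shown are scaled by TMM over all 23 libraries, whereas each fit uses its own factors. Lists (37, of which 36 had a member in the table) and libraries were chosen with earlier results of these data known. Named genes were the markers, the checks, up to 12 per direction by fold without overlap, up to 8 by p, and up to 4 called and 3 most abundant members of each list; Fkbp5, Ly6a and Grrp1 were added after their values were seen, and Sall1 completes a count. Some genes this rule selects are not reported here. DESeq2 and limma-voom were alternatives. No 2 libraries were alike within counting noise (lowest chi-square per degree of freedom 49.5 within name and diet). Gene positions are from GENCODE M21.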

Additional observations from a re-analysis of the deposited data

Results flagged for a closer look

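Of 88 sets of libraries examined, 9 held 1 library far from the rest, and chance gives about 1 such set in 20. The sets are not independent, since they share libraries and genes such as Zbtb16 also enter the sum of a list. The cKO_SFN replicate 1 stood high among the 8 numbered libraries in 5 of these. It had 1210 CPM of the antigen presentation list against 818 in the next library, and 3095 CPM of the hypoxia and glucocorticoid list against 2495. Itpk1 was 148.6 CPM there against 120.03, Zbtb16 22.8 against 15.8 and Fkbp5 81.5 against 41.2. Itpk1 in this library was still below the lowest Astro-named value of 204 CPM.

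Astro1 had 71821 CPM of the oligodendrocyte list, against 42033 in the next Astro-named library. Astro4 had 61.2 CPM of choroid plexus genes against 31.4, and Astro7 had a total count of 391701247 against 169747660. Aldh7a1, the deleted gene, was 70.6 CPM in cKO_no_SFN replicate 7 against 53.3 CPM in the next numbered library, below the lowest numbered ConAstro value of 177 CPM.

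The name contrast differed between diets in Ly6a, by -1.85 on the log2 scale (SFN minus control diet), and in Grrp1, by -1.96, by the test of the difference itself.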

How the results depend on the processing

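The count of 2167 genes lay between 1928 and 3050 under DESeq2, RLE scaling, no filter on low counts, counts thinned to equal depth, no diet term and the fit of 21 libraries. It was 3602 with limma-voom and quality weights, 1077 with cKO_SFN replicate 2 kept, 1256 and 1034 against the numbered libraries 141 and 143 or 146 and 147 alone, and 2083 without Astro1 and Astro7, an alternative chosen after seeing the data. Leaving out each library gave 1459 to 2811 genes on both diets together, 76 to 836 on control diet, 0 to 610 on SFN diet, and 0 to 27 for the difference between diets. DESeq2 called 2150 genes on control diet, 1297 on SFN diet and 51 for the difference. On SFN diet no filter gave 456 and limma-voom 1149, and for the difference limma-voom gave 1 and thinning 0 (868 at an unadjusted p under 0.05). The cause of these shifts was not tested. In fits that leave 1 Astro-named library on control diet, that library is assumed to vary like the others. Of 111 called genes whose folds are given or examined, none turned direction under any of the 25 alternatives, 88 passed whichever library was left out, and 79 passed with cKO_SFN replicate 2 kept. The difference in log2 total count was 0.0029 with diet not held, 0.21 with cKO_SFN replicate 2 kept and 0.087 to 0.52 without each library.

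The replicate numbers in the labels did not pair the libraries, since deviations of libraries with the same number correlated by -0.122 to 0.194. With the replicate number as a block 325 genes passed, 258 lower and 67 higher, and the difference between diets passed in 482. Under the block 24 of the 25 microglial genes still fell, and 47 of the 111 genes passed. Within a diet the block could not be fitted.

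Of the lower genes that passed, 197 had a mean under 1 CPM.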
